A study of Arabidopsis thaliana with 16 samples.

Results

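The interaction of abscisic acid (ABA) and glucose was examined by RNA sequencing of whole seeds of Arabidopsis thaliana, wild type of the ecotype Col-0, during germination. It is described here by gene function, from all 16 libraries of the series and from the 17083 of 27655 counted genes that passed a filter on low counts. All groups were imbibed at 4 °C for 3 days and then germinated in constant light at 22 °C on diluted Murashige and Skoog medium. Transfer to liquid medium took place 24 hours after imbibition and harvest 6 hours later, at 30 hours. The control group is labelled with no compound, the glucose group received 60 mM glucose, the ABA group 5 µM ABA, and the ABA plus glucose group both. Each group has 4 libraries, biological replicates by their labels. The labels name no osmotic control, so an effect of glucose and one of a more concentrated medium cannot be told apart.

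ABA holds seeds back from germination. It binds receptors of the PYR/PYL/RCAR family, which then block clade A protein phosphatases 2C, and the SnRK2 kinases freed in this way act on transcription factors such as ABI5 that bind promoter elements with an ACGT core. Glucose is a carbon source for the seedling and also a signal, read in plants through hexokinase and the SnRK1 kinase, and sugars are known to alter how germinating seeds respond to ABA. The question behind the design is therefore whether glucose acts differently on a gene when ABA is present. The interaction of a gene is its glucose effect with ABA (ABA plus glucose minus ABA) minus its glucose effect without ABA (glucose minus control), on the log2 scale. An interaction of 0 means that the fold effects of the compounds multiply. A gene is said to be called higher or lower when its interaction is positive or negative at an adjusted p under 0.05 by edgeR's quasi-likelihood test, over all genes tested. The word describes the interaction and not the level of the gene. All effects below are log2 fold changes from that fit, and levels are CPM, counts scaled to library size.

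Library totals ran from 9360552 to 17794702 counts. ABA replicate 3, the smallest library, stood apart on the third principal component of log2 CPM, at -33.3 against 7.1 to 10.9 for the other ABA libraries. Values without it are given where it moved a result by much. Each library holds RNA of a whole seed, so fewer cells of a type and less RNA per cell cannot be told apart in any value below.

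The interaction was called for 904 genes, 5.29% of those tested. It was higher for 551 genes, 3.23%, and lower for 353 genes, 2.07%. At least 2-fold interactions were called higher for 93 genes, 0.544%, and lower for 39, 0.228%. Without ABA replicate 3 the counts were 846 and 587, and without ABA plus glucose replicate 3 they were 335 and 226. They also moved by more than 1.5 times without glucose replicate 4, to 358 higher and 232 lower, and for the higher genes without glucose replicate 3, to 360, and ABA plus glucose replicate 1, to 366. Of all 17083 genes tested, 3313 were under an unadjusted p of 0.05 by edgeR. Counts at that limit in single lists are to be read against this share.

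The genes called higher were mostly genes with a lower level in glucose than in control libraries. Their median glucose effect was -0.47 without ABA, with quartiles of -0.68 and -0.29, and 0.17 with ABA, with quartiles of 0.04 and 0.29. Their median ABA effect was -0.73 without glucose and -0.13 with it. The genes called lower had the other arrangement. Their median glucose effect was 0.24 without ABA, with quartiles of 0.12 and 0.35, and -0.30 with ABA, with quartiles of -0.55 and -0.13. Their median ABA effect was 0.87 without glucose and 0.33 with it. The medians over all genes tested lay between -0.01 and 0.01 in these contrasts. These medians describe genes chosen by the interaction and carry no test. Calculated on linear CPM in place of log2, the interaction kept its sign for 549 of the 551 higher genes and for all 353 lower genes.

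**Figure D1:**
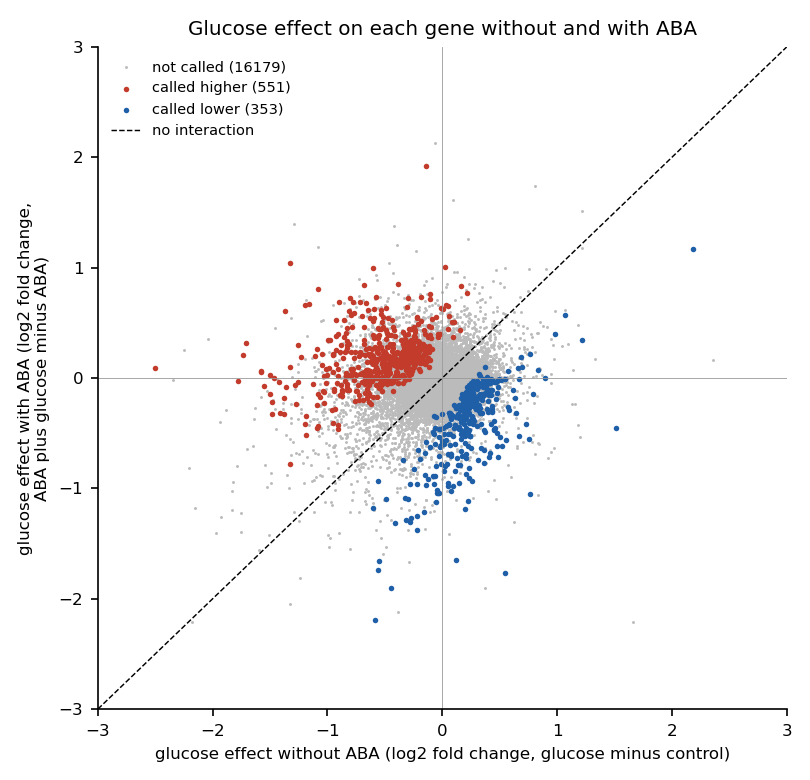
Glucose effect on each tested gene without ABA (x axis, log2 fold change, glucose minus control) and with ABA (y axis, log2 fold change, ABA plus glucose minus ABA), 1 point a gene, with genes called higher and lower in the interaction in color and 4 genes outside the axes. Called genes lie away from the diagonal of equal effects, the 551 higher genes above it and the 353 lower genes below it.

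The functions of these genes were read from 91 lists of gene families and pathways. Of the 904 called genes, the lists held 251 higher and 98 lower genes. Of the 90 lists with at least 5 tested members, 33 held higher calls without a lower one, 10 held lower calls without a higher one, 32 held both and 15 held none. Lower calls were concentrated, by count, in late embryogenesis abundant proteins, starch enzymes, oil body proteins and parts of the ABA pathway. Higher calls were spread over organelle genomes, photosynthesis, cell wall loosening, cuticle formation, water channels, chaperones and NAC transcription factors.

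**Figure D2:**
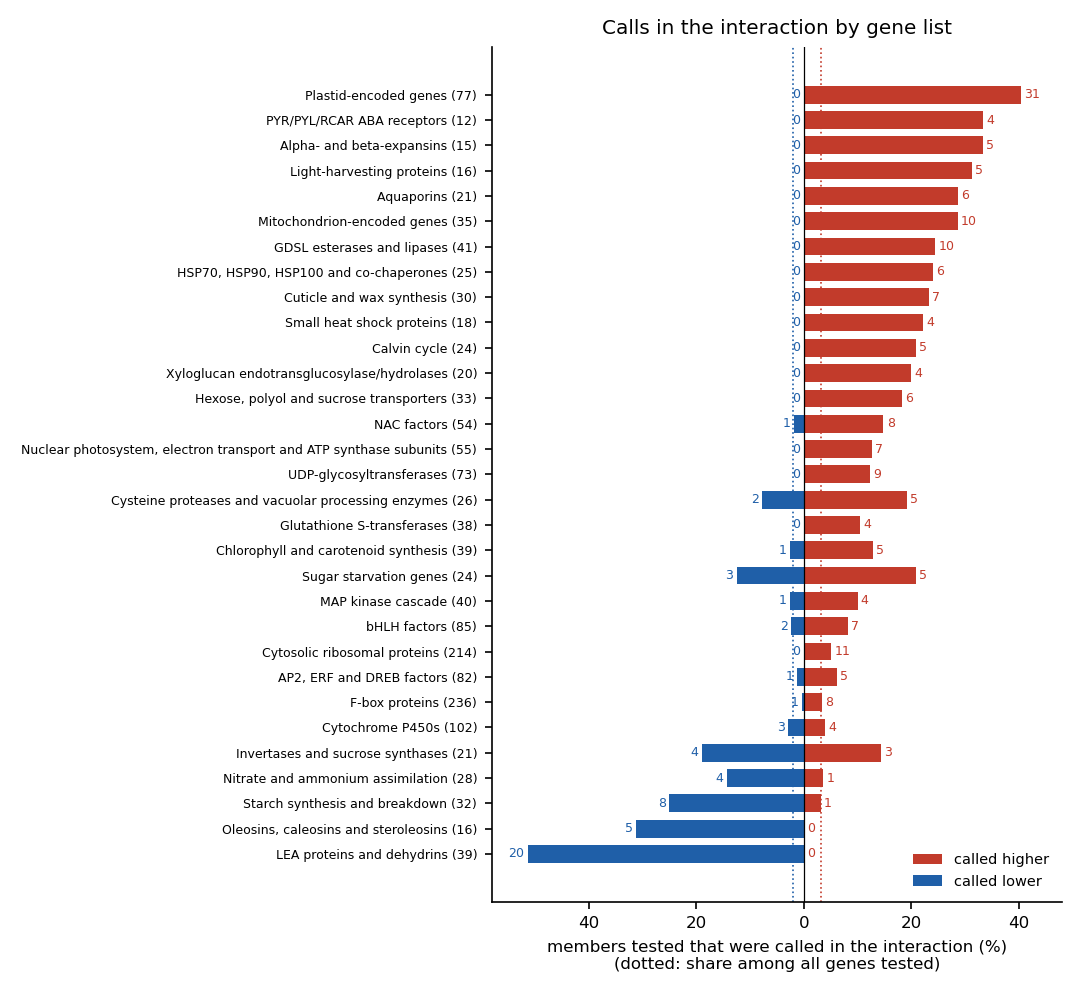
Share of tested members called higher and lower in the interaction (x axis, percent) for the gene lists with the most calls (y axis), with the shares over all genes tested as dotted lines. Late embryogenesis abundant proteins reach 51.3% lower, and plastid-encoded genes 40.3% higher, against 2.07% and 3.23% of all genes tested.

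**Figure D3:**
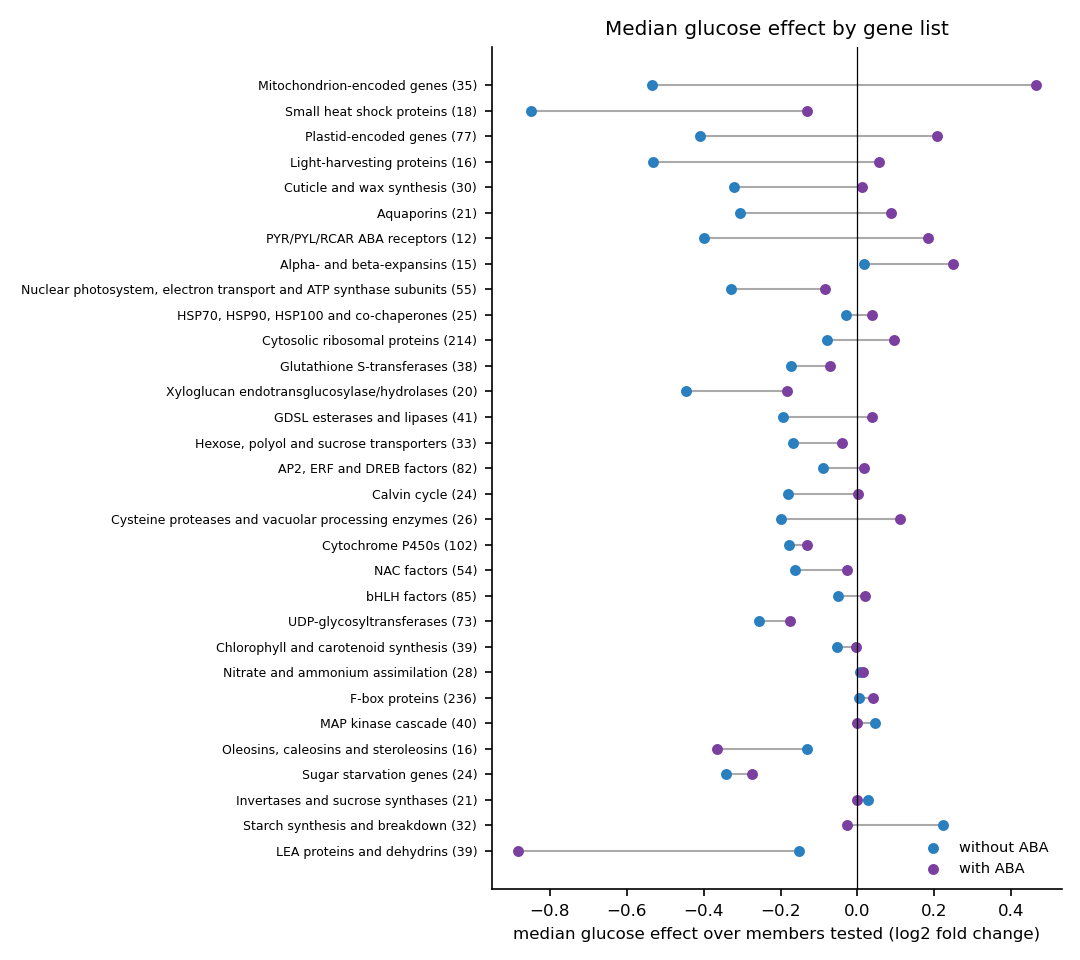
Median glucose effect over the tested members of the same gene lists (x axis, log2 fold change), without ABA and with ABA as separate points joined by a line. The LEA list moves from -0.15 without ABA to -0.88 with it, and the plastid-encoded list from -0.41 to 0.21.

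The lower interaction with the largest share of a list was that of late embryogenesis abundant (LEA) proteins and dehydrins, hydrophilic proteins that accumulate in drying seeds and protect other proteins and membranes from water loss. Of 52 members 39 were tested, 20 were called (51.3%), all lower. The median interaction of the tested members was -0.60, and the called members ran from -1.39 to -0.44. The median ABA effect without glucose was 3.64, and the median glucose effect was -0.15 without ABA and -0.88 with it. Summed over the list, the level was 2792 to 3674 CPM in control, 2801 to 3347 with glucose, 20187 to 28665 with ABA and 11203 to 12709 with both compounds. The groups with ABA therefore lay above those without it in every library, and every library with both compounds lay below every ABA library. The count was 13 without control replicate 4, glucose replicate 2 or ABA plus glucose replicate 4.

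Sequences upstream of these genes are shown because the genes called lower held an ABA-related promoter word more often. The core of the ABA response element, ACGTG, was searched on both strands as ACGTG or CACGT in the 250 bases before the transcript start, with overlapping matches counted as a single site. RefSeq sequences of the TAIR10.1 assembly were matched to genes by locus tag, and the build behind the deposited counts is not given in the sources used here. The word occurred in 22.9% of 27438 nuclear promoters, in 23.5% of 16967 promoters of tested genes, in 25.3% of 510 promoters of higher genes and in 46.5% of 353 promoters of lower genes. At least 2 sites were present in 5.77% of the tested, 5.1% of the higher and 21.8% of the lower genes. Of the 20 called LEA genes 19 held the word and 17 held at least 2 sites, and of the 39 tested LEA genes 79.5% held it. Below are promoters of 3 LEA genes, followed by a higher gene that holds the word and a higher gene that does not, with the word in capitals.
RAB18 (chr5:26519448-26519697, reverse strand): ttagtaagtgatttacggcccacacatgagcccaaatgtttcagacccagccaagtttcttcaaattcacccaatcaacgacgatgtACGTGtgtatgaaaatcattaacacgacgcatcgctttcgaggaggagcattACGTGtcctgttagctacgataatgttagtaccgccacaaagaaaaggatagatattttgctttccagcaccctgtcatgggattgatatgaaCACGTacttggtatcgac
LEA (chr2:9207126-9207375, reverse strand): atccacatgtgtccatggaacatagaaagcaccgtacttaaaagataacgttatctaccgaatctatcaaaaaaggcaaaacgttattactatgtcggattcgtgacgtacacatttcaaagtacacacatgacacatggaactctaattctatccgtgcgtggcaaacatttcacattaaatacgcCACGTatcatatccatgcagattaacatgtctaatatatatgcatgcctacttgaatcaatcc
XERO1 (chr3:18941675-18941924, forward strand): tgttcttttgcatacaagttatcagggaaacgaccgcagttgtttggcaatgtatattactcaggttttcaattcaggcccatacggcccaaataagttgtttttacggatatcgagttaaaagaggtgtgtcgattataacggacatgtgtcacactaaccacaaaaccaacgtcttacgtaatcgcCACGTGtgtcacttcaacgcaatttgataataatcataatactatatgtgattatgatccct
PORB (chr4:13725296-13725545, forward strand): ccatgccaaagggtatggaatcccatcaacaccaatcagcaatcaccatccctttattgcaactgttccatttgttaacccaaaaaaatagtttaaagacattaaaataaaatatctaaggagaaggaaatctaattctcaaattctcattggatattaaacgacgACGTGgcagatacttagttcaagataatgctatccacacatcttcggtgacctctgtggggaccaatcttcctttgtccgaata
KCS19 (chr5:1293724-1293973, reverse strand): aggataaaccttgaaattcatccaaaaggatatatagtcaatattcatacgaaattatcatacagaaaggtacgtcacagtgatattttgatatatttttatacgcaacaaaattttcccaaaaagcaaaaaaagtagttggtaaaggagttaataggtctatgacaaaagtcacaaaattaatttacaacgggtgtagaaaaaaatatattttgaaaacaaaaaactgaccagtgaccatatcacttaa
The RAB18 promoter holds 3 sites, those of LEA, XERO1 and PORB 1 each, and that of KCS19 none in this window. A match describes the letters only. A further 5 words were searched in the same way on both strands. The ribosomal and meristem gene word TGGGCC, called site II, was present in 18.2% of tested, 10.8% of higher and 16.7% of lower genes. The seed gene word CATGCA, called RY, was present in 7.2%, 12.4% and 10.2% in the same order, and the telo-box AAACCCTA in 3.75%, 3.53% and 1.42%. The I-box GATAAG was present in 12.2%, 14.3% and 16.1%, and TATCCA in 14.2%, 17.1% and 16.4%.

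RAB18 (AT5G66400), a dehydrin long used as an ABA marker, stood, in CPM, at 79.6, 69, 70.1 and 42.8 in control libraries, 45.2, 43.2, 48.9 and 40.8 with glucose, 949, 854, 1152 and 841 with ABA and 314, 289, 287 and 248 with both compounds. Every library with both compounds was below every ABA library and above every library without ABA, while control and glucose libraries overlapped. Without ABA the glucose effect on RAB18 was -0.56 and with ABA it was -1.74, an interaction of -1.18 (SE 0.18, adjusted p = 0.000449, edgeR). RAB18 shares 11 bases with PLP3b on the opposite strand, and whether the counting used strand is not given in the sources used here. LEA (AT2G21490), a dehydrin carrying the family name as its symbol, stood, in CPM, at 28.8, 24.1, 27.8 and 19.3 in control libraries, 33.9, 27.2, 30.3 and 23.9 with glucose, 617, 567, 915 and 559 with ABA and 306, 302, 281 and 274 with both compounds. As for RAB18, libraries with both compounds lay below the ABA libraries and above those without ABA, control and glucose libraries overlapped, and ABA replicate 3 was the highest library for both genes. The effect of glucose on LEA was 0.20 without ABA and -1.19 with it, an interaction of -1.39 (SE 0.20, adjusted p = 0.000197, edgeR). XERO1 (AT3G50980), a further dehydrin, stood, in CPM, at 34.8, 25.1, 30.3 and 22 in control libraries, 26.7, 23.4, 25.5 and 21.5 with glucose, 306, 267, 334 and 266 with ABA and 130, 123, 124 and 115 with both compounds. It too had no overlap between ABA libraries and libraries with both compounds. Its glucose effect was -0.22 without ABA and -1.25 with it, an interaction of -1.04 (SE 0.15, adjusted p = 0.000216, edgeR). The interactions of these 3 genes kept their call under all 24 alternative settings. LEA7 (AT1G52690) and ECP63 (AT2G36640), both LEA proteins, were also among the 10 largest negative interactions, at -1.33 (adjusted p = 0.000267, edgeR) and -1.19 (adjusted p = 0.00112, edgeR), and LEA7 had fractional counts in 8 libraries, a sign of reads shared with a similar gene.

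**Figure D4:**
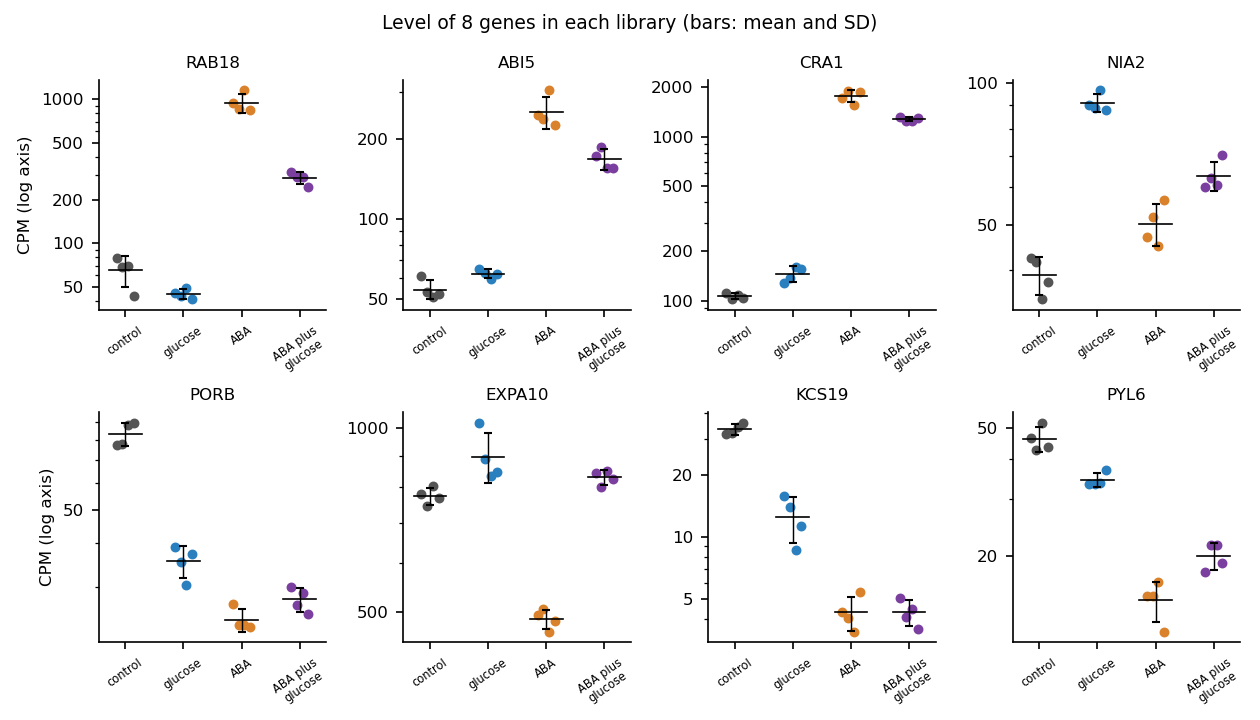
Level of 8 genes in each of the 16 libraries (y axis, CPM on a log axis), grouped by control, glucose, ABA and ABA plus glucose (x axis), 1 point a library with bars for the mean and SD of 4. In RAB18 and ABI5 the libraries with both compounds sit between the ABA libraries and the rest, and in PORB both groups without ABA sit above both groups with it.

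In the ABA pathway the called receptors were higher, and the called phosphatases, transcription factors and synthesis genes were lower with the exception of ABI1. Of 12 tested PYR/PYL/RCAR receptors, PYL1, PYL4, PYL5 and PYL6 were called higher, and the median interaction of the 12 was 0.32. PYL6 (AT2G40330) stood, in CPM, at 46.3, 42.6, 51.7 and 43.6 in control libraries, 33.5, 33.4, 33.7 and 37 with glucose, 15, 15, 16.7 and 11.7 with ABA and 17.8, 21.7, 21.7 and 19 with both compounds. No groups overlapped, and glucose libraries lay below control libraries while libraries with both compounds lay above ABA libraries. Its interaction was 0.89 (adjusted p = 0.000272, edgeR), from glucose effects of -0.43 without and 0.47 with ABA. PYL4 and PYL5 had interactions of 0.65 (adjusted p = 0.00366, edgeR) and 0.57 (adjusted p = 0.00352, edgeR). PYL1 was at 1.04 (adjusted p = 0.0185, edgeR) and lost its call without ABA replicate 1 and without ABA plus glucose replicate 1. The other receptors ran from -0.57 for PYL13 to 0.53 for PYL7, and neither these nor the 6 between them passed the test.

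Clade A phosphatases 2C are the proteins the receptors block. Of the 8 tested, AHG1 (AT5G51760), HAI2 (AT1G07430) and HAB1 (AT1G72770) were called lower, at -0.74 (adjusted p = 0.00335, edgeR), -0.71 (adjusted p = 0.00208, edgeR) and -0.58 (adjusted p = 0.0188, edgeR), and the call of HAB1 was lost without glucose replicate 2. ABI1 was called higher at 0.42 (adjusted p = 0.00479, edgeR). It overlaps MEK1 by 22 bases on the opposite strand. ABI2, HAB2, PP2CA and HAI3 had interactions of -0.10, -0.09, -0.01 and -0.38 and were not called. No member of the 8 tested SnRK2 kinases was called by edgeR. At an unadjusted p under 0.05 there were 3, DESeq2 called 1 lower and limma called none. OST1 (AT4G33950), the SnRK2 kinase named for its role in closing stomata, had the value farthest from 0 among them, -0.31.

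Among the 8 tested group A bZIP factors, ABI5 (AT2G36270) and ABF4 (AT3G19290), both activators of ABA-responsive genes, were called lower. ABI5 stood, in CPM, at 60.9, 53.2, 50.9 and 52.4 in control libraries, 65.1, 62.6, 59.5 and 62.4 with glucose, 245, 236, 303 and 226 with ABA and 172, 187, 156 and 155 with both compounds. Control and glucose libraries overlapped, and the libraries with both compounds lay between them and the ABA libraries. Without ABA the glucose effect on ABI5 was 0.20 and with ABA it was -0.59, an interaction of -0.79 (SE 0.12, adjusted p = 0.000386, edgeR). ABF4 was at -0.82 (adjusted p = 0.00359, edgeR). ABF1, ABF2 and ABF3 had interactions of 0.01, -0.13 and -0.13 and were not called. Of the 8 factors DESeq2 called 3 lower and limma 2. Of 11 tested genes of ABA synthesis and breakdown, 3 synthesis genes were called lower. NCED9 (AT1G78390), a dioxygenase of the first committed step in seeds, was at -1.14 (adjusted p = 0.000993, edgeR), ABA1 (AT5G67030), zeaxanthin epoxidase, was at -0.71 (adjusted p = 0.000211, edgeR), and AAO3 (AT2G27150), abscisic aldehyde oxidase, was at -0.55 (adjusted p = 0.0424, edgeR). The call of AAO3 was lost under 16 of the 24 alternative settings. The ABA effect of NCED9 was 1.58 without glucose and 0.45 with it. TZF5 (AT5G44260), a CCCH zinc finger protein that represses germination, was among the 10 largest negative interactions at -1.13 (adjusted p = 7.34e-05, edgeR), with glucose effects of 0.37 without and -0.77 with ABA. The seed maturation regulators ABI3 and ABI4 were at -0.50 and 0.27, and neither was called by edgeR. Of 4 tested regulators of this list DESeq2 called 1 lower and limma called none, and 2 were under an unadjusted p of 0.05.

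Seed storage proteins, which feed the seedling with nitrogen, did not share a direction. Of 12 tested cruciferins, albumins and vicilins, CRA1 and AT4G36700 were called lower and SESA3 higher, and the median interaction was 0.52. CRA1 (AT5G44120), a 12S cruciferin, stood, in CPM, at 112, 102, 108 and 104 in control libraries, 128, 137, 162 and 157 with glucose, 1736, 1895, 1574 and 1874 with ABA and 1326, 1251, 1253 and 1302 with both compounds. The 4 groups did not overlap, with glucose above control and both compounds below ABA. Its interaction was -0.92 (adjusted p = 1.89e-05, edgeR), and its counts were fractional in 7 libraries, a sign of reads shared with a similar gene. SESA3, a 2S albumin, was at 1.10 (adjusted p = 0.0344, edgeR), a call lost under 14 of the 24 alternative settings. CRU2 and CRU3 had interactions of 0.25 and 0.60 and were not called. Of 16 tested oleosins, caleosins and steroleosins, which coat oil bodies, 5 were called (31.2%), all lower, against 2.07% of all genes tested. The list as a whole was split, with a median interaction of -0.12, 9 members negative and 7 positive. At an unadjusted p under 0.05, 6 were negative and 3 positive. HSD5 (AT4G10020), a steroleosin, was at -0.61 (adjusted p = 0.000529, edgeR), and AT5G56100, an oleosin family gene overlapping COX15 on the same strand, was at -0.996 (adjusted p = 6.62e-05, edgeR). The count of 5 was 2 without glucose replicate 1 or 3, and 3 without control replicates 2, 3 or 4, ABA replicate 1 or ABA plus glucose replicates 3 or 4, and also 3 with upper-quartile scaling. The enzymes that mobilize oil were read in separate lists. None of 10 tested genes of the glyoxylate cycle and gluconeogenesis was called by edgeR, DESeq2 or limma, 2 were under an unadjusted p of 0.05, and the median was 0.03. Among 19 tested genes for oil body lipases and beta-oxidation 1 was called higher (5.26%), against 3.23% of all genes tested.

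Proteases were called in both directions. Among 26 tested cysteine proteases and vacuolar processing enzymes 5 were higher (19.2%) and 2 lower (7.69%), against 3.23% and 2.07% of all genes tested. RD21B (AT5G43060), a papain-like protease, stood, in CPM, at 170, 181, 176 and 185 in control libraries, 117, 109, 94.3 and 110 with glucose, 51.9, 50.4, 48.2 and 49.6 with ABA and 58.3, 57.6, 59.3 and 54.9 with both compounds. The groups did not overlap, and the order from low to high was ABA, both compounds, glucose, control. The effect of glucose on RD21B was -0.72 without ABA and 0.20 with it, an interaction of 0.92 (SE 0.09, adjusted p = 7.05e-06, edgeR). RD21A and RD19, of the same class, were at 0.70 (adjusted p = 0.00026, edgeR) and 0.67 (adjusted p = 0.000519, edgeR). BETA-VPE (AT1G62710), the vacuolar enzyme that processes storage proteins in maturing seeds, had the opposite order with no overlap, in CPM at 162, 152, 148 and 146 in control libraries, 201, 203, 210 and 209 with glucose, 398, 378, 406 and 376 with ABA and 328, 318, 316 and 319 with both compounds. Its interaction was -0.72 (adjusted p = 1.24e-05, edgeR). RD19D was also called lower, at -0.76 (adjusted p = 4.29e-05, edgeR).

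Enzymes that make and break starch were mostly on the lower side. Of 32 tested genes, 8 were called lower and 1 higher, with a median interaction of -0.22 and median glucose effects of 0.22 without ABA and -0.03 with it. The called lower genes were AMY3, GBSS1, ISA1, ISA3, PGM, PGM2, PHS2 and SS3, at -0.77 to -0.31, and the count was 5 with offsets for gene length. GBSS1 (AT1G32900), the granule-bound synthase that makes amylose, stood, in CPM, at 23.2, 27.5, 24.5 and 23 in control libraries, 41.7, 46.8, 46.4 and 40.5 with glucose, 28.2, 33.8, 25.8 and 27 with ABA and 33.4, 28.9, 26.9 and 31.5 with both compounds. Every glucose library was above every other library, and the other 3 groups overlapped. Its glucose effect was 0.84 without ABA and 0.07 with it, an interaction of -0.77 (SE 0.13, adjusted p = 0.000831, edgeR). AMY3 (AT1G69830), an alpha-amylase, was at -0.69 (adjusted p = 0.00279, edgeR) and SS3 (AT1G11720), a soluble starch synthase, at -0.46 (adjusted p = 0.00361, edgeR). BMY3 (AT5G18670), a member of the beta-amylase family, was called higher at 0.63 (adjusted p = 0.00661, edgeR). GPT2 (AT1G61800), which imports glucose 6-phosphate into plastids, was chosen after its values were seen, as the only called member of 6 tested plastid sugar and phosphate translocators. Its mean CPM was 18.7 ± 0.559 in control libraries, 85.2 ± 7.11 with glucose, 9.5 ± 0.85 with ABA and 21.4 ± 0.959 with both compounds (SD, n = 4), an interaction of -1.02 (adjusted p = 1.89e-05, edgeR).

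The called genes of sucrose metabolism differed in direction by enzyme type. Of 21 tested invertases and sucrose synthases, with sucrose phosphate synthases included, 4 were called lower (19%) and 3 higher (14.3%). The median interaction of the 21 was -0.14, with 12 members negative and 9 positive. A division by enzyme type among members that were not called was not tested. The lower genes were the sucrose phosphate synthases SPS3F and SPS2F, which make the sucrose precursor, and the sucrose synthases SUS1 and SUS3. SPS3F (AT1G04920) stood, in CPM, at 9.19, 9.06, 9.85 and 11.6 in control libraries, 12.8, 13.3, 12.8 and 13.9 with glucose, 92.7, 95.8, 84.2 and 95.3 with ABA and 63.2, 64.3, 49 and 53.8 with both compounds. No groups overlapped, with glucose above control and both compounds below ABA, and its interaction was -1.10 (adjusted p = 6.40e-05, edgeR). SUS3 was at -0.60 (adjusted p = 0.0128, edgeR). SUS1 and SPS2F were at -0.59 (adjusted p = 0.036, edgeR) and -1.01 (adjusted p = 0.0363, edgeR) and lost their calls under 10 and 12 of the 24 alternative settings. The higher genes were invertases, which split sucrose. The neutral invertases CINV1 and A/N-InvC were at 0.42 (adjusted p = 0.0141, edgeR) and 0.50 (adjusted p = 0.00313, edgeR), and the other was the vacuolar invertase ATBETAFRUCT4.

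Nitrate assimilation, which glucose raises in many plant tissues, was on the lower side at its reducing steps. Of 28 tested genes of nitrate and ammonium assimilation, 4 were lower (14.3%) and 1 higher (3.57%), against 2.07% and 3.23% of all genes tested. The list median was 0.02. NIA2 (AT1G37130), nitrate reductase, stood, in CPM, at 42.4, 41.6, 34.6 and 37.7 in control libraries, 89.9, 88.4, 96.5 and 87.9 with glucose, 47.1, 51.9, 44.9 and 56.5 with ABA and 60.2, 62.8, 60.9 and 70.2 with both compounds. The groups did not overlap and were ordered control, ABA, both compounds, glucose from low to high. Without ABA the glucose effect on NIA2 was 1.21 and with ABA it was 0.34, an interaction of -0.87 (SE 0.11, adjusted p = 7.89e-05, edgeR). The second nitrate reductase, NIA1, was at -0.60 (adjusted p = 0.000158, edgeR), and nitrite reductase, NIR1, at -0.27 (adjusted p = 0.023, edgeR), a call lost without ABA plus glucose replicate 4. CNX2, of the molybdenum cofactor path, and GDH2, a glutamate dehydrogenase and the only higher gene, were at -0.44 (adjusted p = 0.0463, edgeR) and 0.32 (adjusted p = 0.0382, edgeR) and lost their calls under 17 and 15 of the 24 alternative settings. ASN1, asparagine synthetase, was at -0.72 and was not called, and the nitrate transporter NRT1.1 was at -0.19, not called. In glycolysis and the citrate cycle 3 of 51 tested genes were lower (5.88%) and 2 higher (3.92%), against 2.07% and 3.23% of all genes tested. The 3 were PFK2 (AT5G47810), a phosphofructokinase, at -0.55 (adjusted p = 0.00191, edgeR), and the fermentation enzymes PDC1 (AT4G33070) and ADH1 (AT1G77120), at -0.50 (adjusted p = 0.00199, edgeR) and -0.54 (adjusted p = 0.0132, edgeR).

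Photosynthesis genes formed a large group on the higher side. Of 16 tested light-harvesting proteins, the antenna of the photosystems, 5 were called, all higher, with a median interaction of 0.59. The median glucose effect was -0.53 without ABA and 0.06 with it, and the median ABA effect without glucose was -0.41. LHB1B2 (AT2G34420), an antenna protein of photosystem II, stood, in CPM, at 11, 6.4, 8.81 and 8.56 in control libraries, 4.37, 3.53, 2.32 and 4.56 with glucose, 3.43, 3.13, 4.01 and 2.2 with ABA and 4.28, 3.94, 4.19 and 3.24 with both compounds. Control libraries lay above all others, which overlapped. The effect of glucose on LHB1B2 was -1.26 without ABA and 0.30 with it, an interaction of 1.55 (SE 0.29, adjusted p = 0.00244, edgeR). It overlaps RWA3 by 99 bases on the opposite strand. LHCA3 and CAB1 were at 0.99 (adjusted p = 0.00121, edgeR) and 0.80 (adjusted p = 0.00575, edgeR). CAB1 had fractional counts in 12 libraries and overlaps NRPA2 by 108 bases on the opposite strand. The count of 5 was 3 without control replicate 3, glucose replicate 3, ABA replicate 4 or ABA plus glucose replicates 1 or 3. Of 55 tested nuclear genes for photosystem, electron transport and ATP synthase subunits 7 were called, all higher, with a median of 0.24.

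In the Calvin cycle 5 of 24 tested genes were higher. Of these, 3 encode the small subunit of Rubisco, the enzyme that fixes carbon dioxide. RBCS3B (AT5G38410) stood, in CPM, at 288, 259, 280 and 246 in control libraries, 191, 174, 178 and 174 with glucose, 154, 160, 147 and 146 with ABA and 155, 187, 174 and 169 with both compounds. The control libraries were above all others, glucose libraries lay above ABA libraries, and libraries with both compounds overlapped each of these 2 groups. Its interaction was 0.76 (adjusted p = 5.47e-05, edgeR), and those of RBCS1B and RBCS2B were 1.28 (adjusted p = 0.0142, edgeR) and 0.98 (adjusted p = 0.000267, edgeR). The 3 genes are near-identical and had fractional counts in all 16 libraries, so the division of reads among them is uncertain. Of 39 tested genes of chlorophyll and carotenoid synthesis 5 were higher (12.8%) and 1, the ABA precursor gene ABA1, lower (2.56%), against 3.23% and 2.07% of all genes tested. The list median was 0.035, with 22 members positive and 17 negative. DESeq2 called 5 higher and 3 lower, and limma 4 higher and 3 lower. PORB (AT4G27440), the light-dependent enzyme of chlorophyll synthesis, stood, in CPM, at 77.3, 77.7, 88 and 89.2 in control libraries, 39.1, 35.3, 30.2 and 37.4 with glucose, 26.8, 23.2, 23.2 and 23 with ABA and 29.9, 26.6, 28.8 and 25 with both compounds. Both groups without ABA lay above both groups with it, and glucose lay below control in every library while ABA libraries overlapped libraries with both compounds. Its glucose effect was -1.23 without ABA and 0.19 with it, an interaction of 1.42 (SE 0.12, adjusted p = 1.36e-06, edgeR). PORB overlaps AT4G27450 by 71 bases on the opposite strand. The light stress proteins ELIP1 and ELIP2 were at 0.84 (adjusted p = 1.00e-04, edgeR) and 0.81 (adjusted p = 0.00483, edgeR).

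Genes of the organelle genomes were on the higher side, and the plastid-encoded list held more higher calls than any other list. Of 77 tested plastid-encoded genes 31 were called (40.3%), all higher, with a median interaction of 0.70 and median glucose effects of -0.41 without ABA and 0.21 with it. The called genes encode photosystem and ATP synthase subunits, ribosomal proteins and the plastid RNA polymerase, and ran from 0.46 to 1.64. ATPE (ATCG00470), a subunit of the plastid ATP synthase, had the largest positive interaction among called genes with a mean of at least 5 CPM, and stood, in CPM, at 392, 228, 182 and 235 in control libraries, 106, 77.3, 68.8 and 115 with glucose, 177, 197, 263 and 264 with ABA and 199, 227, 273 and 216 with both compounds. Glucose libraries lay below all others, and the other 3 groups overlapped. Its interaction was 1.52 (adjusted p = 0.00135, edgeR). PSBD and PSBM, of photosystem II, were at 1.25 (adjusted p = 0.00208, edgeR) and 1.34 (adjusted p = 0.000543, edgeR). Of 35 tested mitochondrion-encoded genes 10 were called, all higher, with a median of 0.92, and 6 were higher without glucose replicate 4.

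Organelle transcripts carry few or short poly(A) tails, and the libraries were made from messenger RNA, so the recovery of these transcripts can differ between libraries. Of all counts, plastid genes took 0.672% to 1.04% without a compound, 0.555% to 0.676% with glucose, 0.604% to 0.792% with ABA and 0.76% to 0.939% with both. Control replicate 1 had the highest share, and without it 23 plastid-encoded genes were called. With offsets for gene length the count was 19. Mitochondrial genes took 0.0259% to 0.0429%, 0.0219% to 0.0276%, 0.0193% to 0.0271% and 0.0256% to 0.0369% in the same order of groups. The part of recovery in these calls was not tested. Nuclear genes for organelle ribosomes held no call among 49 tested by edgeR, DESeq2 or limma, with 6 positive at an unadjusted p under 0.05 and a median of 0.07.

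**Figure D5:**
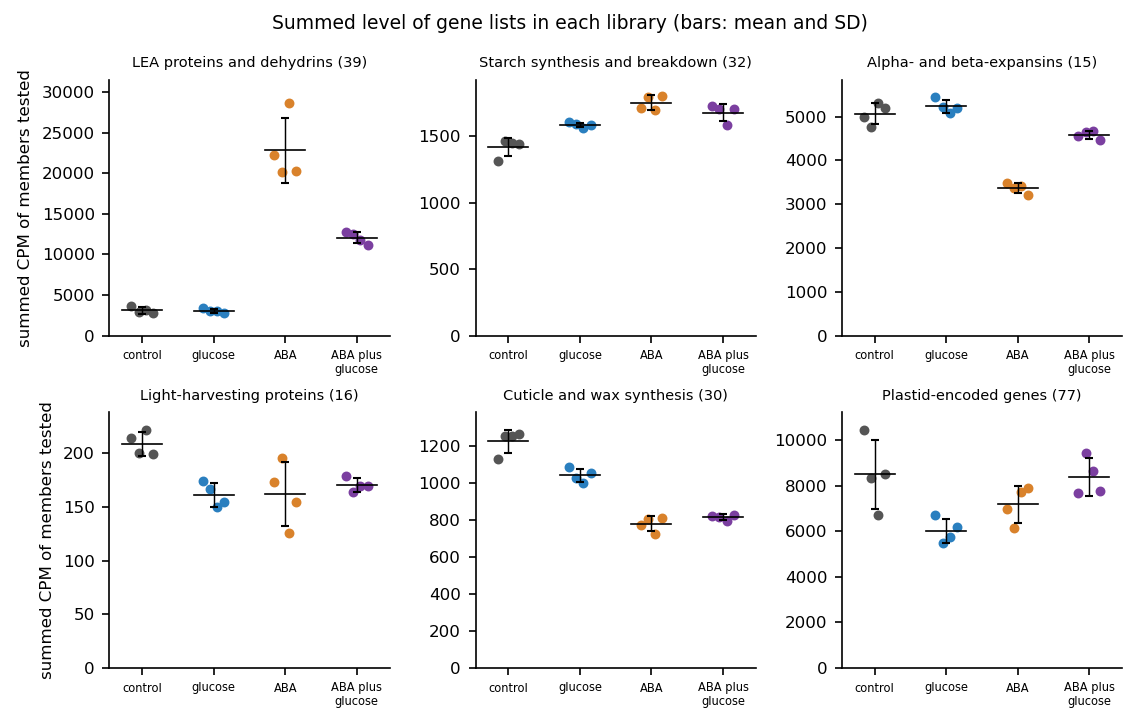
Summed level of the tested members of 6 gene lists in each library (y axis, CPM from 0), grouped by control, glucose, ABA and ABA plus glucose (x axis), 1 point a library with bars for the mean and SD of 4. LEA proteins reach 28665 CPM in ABA replicate 3 and 12709 at most with both compounds, and plastid-encoded genes are lowest with glucose, at 5472 to 6692.

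Genes that loosen cell walls and let water in were on the higher side. These processes allow the embryo to elongate. Of 15 tested expansins 5 were called (33.3%), all higher, with a median of 0.30. Of 20 tested xyloglucan endotransglucosylase/hydrolases (XTH) 4 were higher (20%), against 3.23% of all genes tested. EXPA10 (AT1G26770), an expansin, stood, in CPM, at 779, 744, 805 and 767 in control libraries, 1021, 890, 835 and 848 with glucose, 494, 505, 464 and 483 with ABA and 843, 800, 852 and 826 with both compounds. ABA libraries lay below all others and glucose libraries above control libraries, while libraries with both compounds overlapped control and glucose. Without ABA the glucose effect on EXPA10 was 0.22 and with ABA it was 0.77, an interaction of 0.56 (SE 0.085, adjusted p = 0.000395, edgeR). EXPA1, EXP3 and EXPA8 were at 0.50 (adjusted p = 0.00033, edgeR), 0.50 (adjusted p = 0.00175, edgeR) and 0.61 (adjusted p = 0.00361, edgeR). Summed over the 15 expansins, the level was 4770 to 5312 CPM in control, 5096 to 5448 with glucose, 3206 to 3478 with ABA and 4475 to 4664 with both compounds. The libraries with both compounds therefore lay above the ABA libraries without overlap.

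Further wall genes were called. XTH31 (AT3G44990) was at 0.67 (adjusted p = 0.00558, edgeR). GH9B1 (AT1G70710), an endoglucanase, stood, in CPM, at 46.4, 46, 43.9 and 48.5 in control libraries, 26.1, 25.3, 24.4 and 23.5 with glucose, 13.4, 14.3, 18.8 and 15.4 with ABA and 18.4, 19.7, 16.2 and 17.9 with both compounds. Control lay above glucose and glucose above both groups with ABA, which overlapped. The effect of glucose on GH9B1 was -0.89 without ABA and 0.23 with it, an interaction of 1.13 (SE 0.12, adjusted p = 1.89e-05, edgeR). BXL1 (AT5G49360), a beta-xylosidase, and SBT5.6 (AT5G45650), a subtilase, were among the 10 largest positive interactions, at 1.35 (adjusted p = 0.00023, edgeR) and 1.35 (adjusted p = 1.00e-04, edgeR). MAN7 (AT5G66460), a mannanase that softens the endosperm, was called lower at -0.72 (adjusted p = 0.00026, edgeR). None of 21 tested cellulose synthases and related genes was called by edgeR, DESeq2 or limma, nor was any under an unadjusted p of 0.05. Of 33 arabinogalactan proteins none was called by edgeR or limma, 1 was called higher by DESeq2, and 4 were under an unadjusted p of 0.05. Of 21 tested aquaporins 6 were called, all higher, with a median of 0.34 and with PIP2A (AT3G53420) and PIP1C (AT1G01620), both of the plasma membrane, at 0.73 (adjusted p = 0.00625, edgeR) and 0.48 (adjusted p = 0.00125, edgeR).

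The cuticle seals the surface of the embryo and seedling, and its genes were on the higher side as well. Of 30 tested cuticle and wax genes 7 were called, all higher, with a median of 0.40 and a median ABA effect of -0.91 without glucose. KCS19 (AT5G04530), an enzyme that lengthens fatty acids, stood, in CPM, at 31.7, 31.8, 34.3 and 35.8 in control libraries, 15.8, 14, 8.67 and 11.2 with glucose, 4.34, 4.06, 3.46 and 5.41 with ABA and 5.08, 4.1, 4.49 and 3.58 with both compounds. The control libraries were highest, the glucose libraries followed without overlap, and the libraries with ABA overlapped whether or not they held glucose. Its glucose effect was -1.43 without ABA and -0.03 with it, an interaction of 1.39 (SE 0.23, adjusted p = 0.000834, edgeR). KCS20 and the acyl-CoA synthetase LACS1 were at 0.71 (adjusted p = 0.00931, edgeR) and 0.61 (adjusted p = 0.00433, edgeR). The count was 4 without control replicate 2, glucose replicate 2, ABA replicate 1 or ABA plus glucose replicates 1 or 2. Of 41 tested GDSL esterases and lipases 10 were called, all higher, at 0.34 to 0.83, and 6 were higher without control replicate 4, glucose replicate 3 or ABA plus glucose replicate 1.

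Sugar transporters and starvation genes gave a mixed picture. Of 33 tested hexose, polyol and sucrose transporters 6 were called (18.2%), all higher, against 3.23% of all genes tested, with a median of 0.13. STP4 (AT3G19930), a hexose importer, stood, in CPM, at 115, 113, 104 and 115 in control libraries, 77.2, 66.9, 64.3 and 68.5 with glucose, 46.7, 47.3, 46.1 and 44.7 with ABA and 45.7, 46.7, 41.7 and 45.8 with both compounds. Control lay above glucose without overlap, and both groups with ABA overlapped below them. Its interaction was 0.65 (adjusted p = 0.000179, edgeR). STP1, SUC1 and SUGTL5 were at 0.69 (adjusted p = 0.0157, edgeR), 0.68 (adjusted p = 0.000268, edgeR) and 1.14 (adjusted p = 0.00747, edgeR). STP1 had fractional counts in 15 libraries and overlaps AT1G11270 by 312 bases on the opposite strand. Of 24 tested genes that sugar starvation raises, 5 were higher and 3 lower, with a median of -0.13 and median glucose effects of -0.34 without and -0.27 with ABA. DIN10 (AT5G20250), a raffinose synthase family gene, stood, in CPM, at 1068, 1279, 1312 and 1357 in control libraries, 881, 912, 874 and 920 with glucose, 497, 518, 517 and 506 with ABA and 574, 580, 575 and 581 with both compounds. The groups did not overlap, in the order ABA, both compounds, glucose, control from low to high. Its interaction was 0.66 (adjusted p = 1.00e-04, edgeR). EXL4 was at 0.59 (adjusted p = 0.0121, edgeR), and DYL1, a dormancy-related gene, was called lower at -0.54 (adjusted p = 0.0108, edgeR). SEN1 and AKINBETA1 were at -0.02 and -0.23 and were not called. Of 29 tested SnRK1 and TOR kinase subunits none was called by edgeR, DESeq2 or limma, 8 were under an unadjusted p of 0.05, and the median was -0.09.

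Chaperones, which fold and refold proteins, were on the higher side. Of 25 tested HSP70, HSP90 and HSP100 proteins and co-chaperones 6 were called, all higher, at 0.22 to 0.89. HSP70-3 (AT3G09440) stood, in CPM, at 363, 340, 340 and 329 in control libraries, 255, 219, 193 and 218 with glucose, 163, 180, 217 and 175 with ABA and 190, 193, 198 and 182 with both compounds. Control libraries lay above the rest, which overlapped. Its interaction was 0.69 (adjusted p = 0.000853, edgeR). It overlaps AT3G09430 by 378 bases on the opposite strand. HSP90.1 was at 0.75 (adjusted p = 0.0101, edgeR). The count of 6 was 10 without ABA replicate 3 and 3 without control replicates 1 or 2, glucose replicates 3 or 4 or ABA plus glucose replicate 1. Of 18 tested small heat shock proteins 4 were higher, with a median of 0.73. HSP17.4 and HSP17.6A were at 1.48 (adjusted p = 0.0404, edgeR) and 1.20 (adjusted p = 0.0249, edgeR) and lost their calls under 16 and 6 of the 24 alternative settings.

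Transcription factors were called by family and in small numbers. Of 54 tested NAC factors, several of which act in ageing and drought, 8 were higher (14.8%) and 1 lower (1.85%). The shares of all genes tested were 3.23% higher and 2.07% lower. NAC048 (AT3G04420) stood, in CPM, at 26.1, 24.6, 28.4 and 24.7 in control libraries, 21, 22.2, 17.6 and 18.6 with glucose, 10.3, 7.93, 7.58 and 9.1 with ABA and 16.4, 15.1, 15.5 and 17 with both compounds. The 4 groups did not overlap, with glucose below control and both compounds above ABA. Without ABA the glucose effect on NAC048 was -0.39 and with ABA it was 0.85, an interaction of 1.24 (SE 0.14, adjusted p = 1.89e-05, edgeR). NAC047 was at 0.83 (adjusted p = 0.0132, edgeR), and NAC089 was the lower member at -0.52 (adjusted p = 0.0298, edgeR), a call lost under 7 of the 24 alternative settings. Of 85 tested bHLH factors 7 were higher (8.24%) and 2 lower (2.35%), the lower share near that of all genes tested. Among the higher ones were HEC1 and HEC2, at 1.03 (adjusted p = 0.00359, edgeR) and 2.03 (adjusted p = 0.00263, edgeR), and their relative HEC3 and partner SPT, which were noted after their values were seen, at 1.18 (adjusted p = 0.039, edgeR) and 0.28 (adjusted p = 0.0457, edgeR), calls lost under 13 and 18 of the 24 alternative settings. In flowers HEC factors and SPT work together in fruit development. bZIP2 (AT2G18160) and BZO2H3 (AT5G28770) belong to bZIP groups that act downstream of SnRK1. They were higher at 0.72 (adjusted p = 0.000121, edgeR) and 0.85 (adjusted p = 0.00032, edgeR), and bZIP2 stood, in CPM, at 88.4, 80.5, 88 and 96.1 in control libraries, 56.2, 53, 54.3 and 62.3 with glucose, 62, 56, 63.1 and 58.7 with ABA and 59.5, 64.6, 66.7 and 61.8 with both compounds. Its control libraries lay above the other 3 groups, which overlapped. GBF2 (AT4G01120), a G-box factor, was lower at -0.64 (adjusted p = 0.00112, edgeR).

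Of 40 tested MAP kinase cascade genes 4 were higher (10%) and 1 lower (2.5%), against 3.23% and 2.07% of all genes tested. MAPKKK20 (AT3G50310) stood, in CPM, at 27.4, 25.4, 24.7 and 28.8 in control libraries, 25.5, 24.2, 22.4 and 26.4 with glucose, 12.5, 11.1, 12.3 and 12.5 with ABA and 18.3, 21, 22.5 and 20.4 with both compounds. ABA libraries lay below all others and libraries with both compounds below control libraries, while glucose libraries overlapped both of these groups. The effect of glucose on MAPKKK20 was -0.11 without ABA and 0.76 with it, an interaction of 0.87 (SE 0.12, adjusted p = 0.00012, edgeR). MAPKKK19, its close relative, was at 0.88 (adjusted p = 0.000236, edgeR), and MKK9 was at 0.86 (adjusted p = 0.045, edgeR) and lost its call under 11 of the 24 alternative settings. Of 73 tested UDP-glycosyltransferases, which attach sugars to hormones and other small molecules, 9 were called (12.3%), all higher. The list median was 0.06, with 40 members positive and 33 negative. DOGT1 (AT2G36800), an enzyme acting on brassinosteroids and other substrates, was at 0.65 (adjusted p = 0.00116, edgeR). Of 38 tested glutathione S-transferases 4 were higher (10.5%), with GSTU8 (AT3G09270) at 0.93 (adjusted p = 0.00403, edgeR).

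Genes of growth in general differed by list. Of 214 tested cytosolic ribosomal proteins 11 were called (5.14%), all higher, against 3.23% of all genes called higher, with a median of 0.18. Interactions were positive for 210 of them and negative for 4. At an unadjusted p under 0.05 there were 52, all positive, against 3313 of all 17083 genes tested in either direction. DESeq2 called 18, all higher. Summed over the list, control replicate 1 was at 153873 CPM against 137133 to 141321 in the other control libraries. ABA replicate 3 was at 123288 CPM against 131549 to 141865 in the other ABA libraries. The part of these libraries in the positive values was not tested. RPL3B (AT1G61580), a ribosomal protein of the large subunit, was at 0.90 (adjusted p = 0.000166, edgeR). F-box proteins, at 8 higher and 1 lower of 236, were at 3.39% and 0.424%. No member was called by edgeR among 58 ribosome biogenesis factors, 46 aminoacyl-tRNA synthetases, 68 cyclins, CDKs and mitotic genes, 51 DNA replication genes, 20 ethylene genes and 16 brassinosteroid genes. In the same order 7, 3, 8, 4, 4 and 1 of them were under an unadjusted p of 0.05, against 3313 of all 17083 genes tested. In these lists DESeq2 called 1 ribosome biogenesis factor higher and 1 synthetase and 1 cell cycle gene lower, and limma called no member.

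The largest interactions among called genes with a mean of at least 5 CPM included genes outside the lists. AT5G45310 and AT3G05260, the latter annotated as a homolog of glucose and ribitol dehydrogenases, had the most negative values at -1.77 (adjusted p = 0.000578, edgeR) and -1.61 (adjusted p = 0.000853, edgeR). The glucose effect of AT3G05260 was -0.59 without ABA and -2.20 with it. DTX24 (AT3G03620), a MATE family transporter, was at -1.31 (adjusted p = 0.00062, edgeR). On the positive side LATE (AT5G48890), a C2H2 zinc finger protein, was at 1.43 (adjusted p = 0.000194, edgeR), with glucose effects of -1.33 without and 0.10 with ABA.

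Markers of seed tissues were read beside these lists. Of 3 endosperm markers, MAN7 was called lower, EPR1 was at -0.82 (adjusted p = 0.252, edgeR) and EXPA2 was at 0.12 (adjusted p = 0.555, edgeR). Their summed level was 1078 to 1280 CPM in control, 1192 to 1319 with glucose, 1135 to 1550 with ABA and 1214 to 1385 with both compounds, so the 4 groups overlapped. The epidermal genes PDF1 and ATML1 were not called, and their sum was 311 to 395, 343 to 386, 268 to 321 and 260 to 316 CPM in the same order. Glucose libraries lay above all libraries with ABA, with or without glucose, and control libraries overlapped those of the glucose, ABA and ABA plus glucose groups. The part of tissue makeup in the list results was not tested.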

How the data were processed

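RNA of whole seeds was made into messenger RNA libraries and sequenced in paired ends, per the labels' protocols. The authors deposited a table of estimated counts per gene, which has decimals and is not normalized, and a signal column headed TPM for each library, per the file headers. The deposited signal summed to 945626 to 1037286 per library, so its scaling is not known, and it was used only in 1 alternative and for gene length. Trimmomatic 0.38, kallisto 0.44.0 and sleuth are named without roles, per the submitters' processing notes. The genome build, annotation and strand setting are not given in the sources used here. The table holds 16 further columns of other samples, which were not used.

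Estimated counts were rounded to whole numbers, where the planned design had named raw counts, and the planned test was kept. Genes were kept by filterByExpr at its default minimum count of 10, which removed 10572 genes. A single fit of 4 group means to 16 libraries was made with edgeR 4.0.16 in R 4.3.3 (TMM, quasi-likelihood F-test), and the Benjamini-Hochberg adjustment covered all 17083 genes. A gene was called at an adjusted p under 0.05. The standard error (SE) is approximate, as the absolute log2 value over the square root of F. CPM use TMM-scaled totals. The biological coefficient of variation was 7.88%. A count of 3, the limit that a count of 0 allows, was 0.169 to 0.32 CPM, for counting error only. The fit was tested on simulated counts of 17083 genes, with a single mean per gene and changes added only to the ABA plus glucose group. It recovered 83% of genes changed 2-fold and 97% of those changed 4-fold, with 2.17% false among its calls. The simulation held no effect of either compound alone and no library that stood apart. These rates therefore need not hold for the calls above.

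The 91 lists were matched on deposited and RefSeq gene names, deposited descriptions or locus tags. They, and the genes, were chosen with earlier results of these data known, and 1 gene that is no MYB factor was removed from its list after its value was seen. Named genes were the 10 largest interactions in each direction with a mean of at least 5 CPM, up to 4 called members of a list in its main direction and 2 in the other, and any member of lists with known single roles. List medians and counts carry no test. Alternatives were DESeq2 1.42.0, other scalings, other filters, limma 3.58.1 on log2 of the deposited signal plus 1, a replicate block and each library left out. Gene overlaps were read from RefSeq, and fractional counts were taken as a sign of shared reads. Neither is given above for every gene. On the opposite strand AAO3 overlaps AT2G27160 by 345 bases, HSD5 overlaps AT4G10030 by 194 and PFK2 overlaps AT5G47800 by 157. The interactions of AT4G10030 and AT5G47800 were -0.41 and -0.73.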

Additional observations from a re-analysis of the deposited data

Results flagged for a closer look

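The glucose effects of 551 genes (called higher) and 353 genes (called lower) differed between seeds with and without ABA by the test of the difference itself, and these are the results described above.

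Among the genes named above, the 4 libraries of each group were also checked for a library whose gap to the nearest other library exceeded Dixon's 95% critical value, as a share of the group's range. This was so for 37 of 496 groups of libraries (7.46%), where chance gives about 1 in 20. ABA replicate 3 accounted for 12 and control replicate 1 for 7 of them. Those of control replicate 1 were DYL1 (74.8 CPM), RPL3B (56.6 CPM), ABI3 (182 CPM), SPT (77.3 CPM), KCS20 (45.5 CPM), PFK2 (27.3 CPM) and AHG1 (41.2 CPM). Control replicate 2 was apart for ABI1 (89.4 CPM) and ABA1 (23.5 CPM). In control replicate 4, ADH1 (631 CPM), AT3G05260 (0.846 CPM) and AT5G45310 (1.8 CPM) stood apart from the other 3 libraries of the group. Those of glucose replicate 1 were ABI4 (171 CPM), ELIP1 (90.8 CPM) and PSBD (15.8 CPM). Glucose replicate 3 was apart for BZO2H3 (10.3 CPM). In glucose replicate 4, PYL6 (37 CPM) and ABI3 (292 CPM) stood apart from the other 3 libraries of the group. Those of ABA replicate 1 were PORB (26.8 CPM). ABA replicate 2 was apart for MAPKKK20 (11.1 CPM). In ABA replicate 3, STP1 (15.1 CPM), EXPA1 (1143 CPM), SUC1 (153 CPM), LEA (915 CPM), EPR1 (653 CPM), ECP63 (1811 CPM), PYL4 (97.9 CPM), EXPA8 (204 CPM), DTX24 (33.4 CPM), SUGTL5 (1.73 CPM), ABI3 (474 CPM) and HEC3 (2.6 CPM) stood apart from the other 3 libraries of the group. Those of ABA plus glucose replicate 1 were ABF2 (3.92 CPM), LACS1 (22.3 CPM) and DTX24 (34.2 CPM). ABA plus glucose replicate 2 was apart for EXPA8 (233 CPM). In ABA plus glucose replicate 3, ELIP1 (64.1 CPM) stood apart from the other 3 libraries of the group.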

How the results depend on the processing

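All 104 called genes given with a value above kept their direction under the 24 alternatives, except that AT3G05260 was not tested with at least 10 counts in every library, and 89 of them kept their call under every one run. The counts of higher and lower genes were 581 and 484 with DESeq2, which gave no adjusted p for 996 genes, 683 and 285 with upper-quartile factors, 483 and 354 with no filter, 508 and 388 with at least 10 counts in every library, 545 and 349 with a robust fit, 514 and 367 with limma on the deposited signal, and 558 and 327 with offsets for gene length. The share of calls that were higher was 70.6% with upper-quartile factors against 61% as reported. The median interaction of all genes moved by less than 0.1 under every setting. Of the lists, oleosins had 3 lower calls with upper-quartile factors and, with offsets for gene length, starch enzymes had 5 lower and plastid-encoded genes 19 higher calls. The causes were not tested.

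Leaving out each library in turn gave 335 to 846 higher and 226 to 587 lower genes. The same range was 13 to 20 for LEA proteins, 6 to 11 for starch enzymes, 2 to 6 for oleosins, 22 to 34 for plastid-encoded genes, 6 to 13 for mitochondrion-encoded genes, 3 to 5 for light-harvesting proteins, 6 to 11 for GDSL esterases, 4 to 8 for cuticle genes and 3 to 10 for HSP70 and related chaperones. Genes at a few CPM have wide errors at these depths.

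With the replicate number as a block, 549 higher and 389 lower genes were called. The numbers do not pair the libraries: deviations of 24 pairs of libraries with the same number correlated at -0.16 to 0.11, with 2 over 0.1, and 4 of 16 libraries correlated best with their own number.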
